A study of Mus musculus with 9 samples.

Results

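The genes described here encode the core of the synaptic vesicle and of the machinery that fuses it with the presynaptic membrane: Syp, Syn1, Syn2, Syt1, Snap25, Stx1a, Vamp2, Slc17a7 and Rab3a. They were chosen by name, as every probe outside the control spots whose gene name was 1 of these 9, and 10 probes met this, 2 of them for Syn2. The array carried 31093 gene names, and 21905 could be tested. There were 3 mice of each genotype, IF1-KO, CRL and IF1-TG, all male, C57BL/6J by their labels and 9 months old, and hippocampal total RNA of each mouse had been hybridized to its own one-colour Agilent array. IF1 is the inhibitor of the mitochondrial ATP synthase, and the study asked what its dose in neurons does. IF1-KO mice lacked exon 3 of the IF1 gene where Cre was expressed from the Camk2a promoter. IF1-TG mice carried a human IF1 transgene under a tetracycline-responsive element, driven by a transactivator that was also under the Camk2a promoter. This promoter is active mostly in excitatory neurons of the forebrain, so that both models target these cells rather than interneurons or glia. CRL mice are the controls, and which alleles the controls of the arrays carried was not given in the sources used here. The lines started from C57BL/6NTac, SJL and CBA stocks and were kept on C57BL/6J.

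At a synapse, neurotransmitter is pumped into vesicles, the vesicles are held in clusters near the release site, and a few are docked and primed. The SNARE proteins of the vesicle and of the plasma membrane zip together and pull the membranes close, calcium binding to synaptotagmin triggers fusion, and the vesicle membrane is then taken up again and refilled. In the hippocampus most of these terminals are glutamatergic. Much of this RNA lies in the cell bodies of local neurons, whereas terminals of axons that enter from elsewhere leave their RNA behind in other regions. Whether fewer cells of a type or less RNA per cell lay behind a level cannot be told apart in whole tissue.

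Values are log2 signals with the array's 75th percentile set to 0, and are compared only within a probe. Between 66.7% and 74.9% of probes were well above background per array, with the lowest shares on the IF1-TG arrays. Atpif1, the IF1 gene (1 probe, chromosome 4 of mm9 from 132086507 to 132086566), read 6.19 to 6.34 in CRL mice, 6.38 to 6.51 in IF1-TG mice, and 5.20 and 5.53 in IF1-KO replicates 2 and 3. The array labelled IF1-KO replicate 1 read 6.43 and thus showed no loss of Atpif1 signal, and where the probe lies relative to exon 3 was not determined here. All 8 hippocampal excitatory neuron markers and all 7 pan-neuronal markers were well above background on all 9 arrays. The arrays differed in markers of neighbouring tissue. The mean log2 level of 6 choroid plexus markers spanned -2.62 to 1.53 in IF1-KO, -2.05 to 1.78 in CRL and -1.94 to 2.94 in IF1-TG mice, and 5 of the 6 were well above background on every array (all but Aqp1). That of 7 striatum markers was 0.15 on CRL replicate 3 and between -1.26 and -0.76 on the other arrays. Their part in the values below was not tested.

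No member reached a fold change of 1.5 with an unadjusted P value below 0.05 in any of the 3 comparisons, and none had an unadjusted P value below 0.05 in limma. The smallest unadjusted P value was 0.109 between IF1-TG and CRL, 0.238 between IF1-KO and CRL and 0.195 between IF1-TG and IF1-KO mice. Of all genes tested, 5.59%, 1.34% and 4.7% passed both thresholds in these comparisons, and 10.5%, 3.24% and 8.83% had an unadjusted P value below 0.05 on at least 1 probe, so that a count of 0 among 9 genes lies near what any 9 genes would give. All 10 member probes were well above background on all 9 arrays, none was saturated and each was printed as 1 spot. The comparisons share arrays, so their values are not independent of each other.

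**Figure D1:**
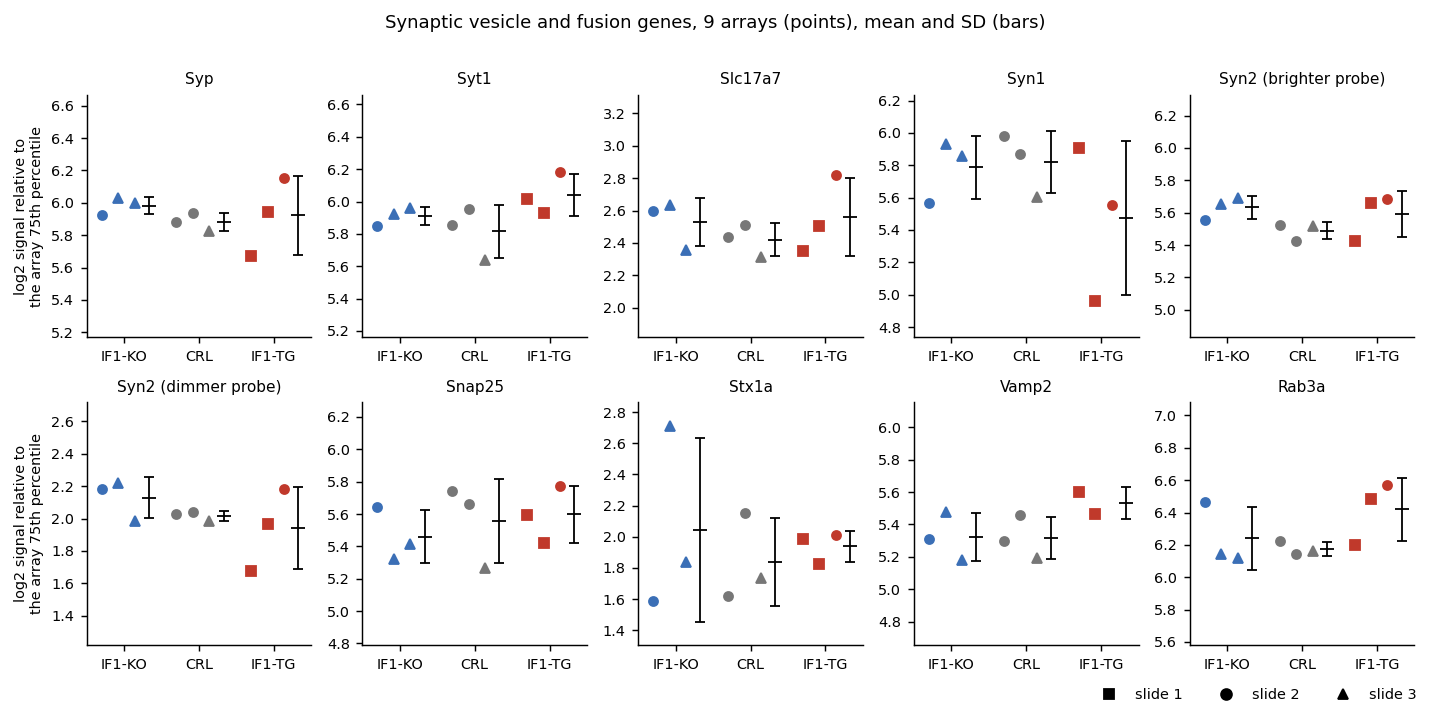
Log2 signal relative to the array 75th percentile (vertical axes, each panel with its own range) of the 10 member probes on the IF1-KO (blue), CRL (grey) and IF1-TG (red) arrays. Points are arrays with a shape for each slide, in order of replicate number from left to right, and the bars to their right give the mean and SD of 3 arrays (2 for Vamp2 in IF1-TG mice). In 9 of the 10 panels the range of the IF1-TG points overlaps that of the CRL points (for both Syn2 probes the IF1-TG points lie on either side of the CRL points), Vamp2 being the exception, and the widest spreads are those of Stx1a in IF1-KO mice and Syn1 in IF1-TG mice.

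Among the proteins of the vesicle membrane, synaptophysin (Syp) is among the most abundant and is a common marker of terminals. Its signal was 5.92, 6.03 and 6.00 on IF1-KO replicates 1, 2 and 3, 5.88, 5.94 and 5.82 on the CRL arrays, and 5.67, 5.95 and 6.16 on the IF1-TG arrays. The IF1-TG arrays held both the lowest and the highest value, and all groups overlapped. Syp differed by 0.042 on the log2 scale between IF1-TG and CRL (standard error 0.14, 95% interval -0.27 to 0.36), a fold of 1.03 with an interval of 0.829 to 1.28. Between IF1-KO and CRL the log2 difference was 0.10 (interval -0.21 to 0.41) and between IF1-TG and IF1-KO -0.059 (interval -0.37 to 0.25).

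Synaptotagmin 1 (Syt1) is the calcium sensor for fast release. Its probe read 5.85, 5.92 and 5.96 on the IF1-KO arrays, 5.86, 5.96 and 5.64 on the CRL arrays and 6.01, 5.93 and 6.18 on the IF1-TG arrays. The highest value was that of IF1-TG replicate 3 and the lowest that of CRL replicate 3, while IF1-TG replicate 2 fell among the controls. Syt1 gave the smallest P value of the members: the IF1-TG arrays averaged 6.04 ± 0.13 (SD, n = 3) against 5.82 ± 0.16 (SD, n = 3) for CRL, a log2 difference of 0.22 with a standard error of 0.13 and an interval of -0.062 to 0.51 (limma unadjusted P = 0.109, adjusted P = 0.659). Without CRL replicate 3 this difference was 0.14. The difference between IF1-KO and CRL was 0.093 (interval -0.19 to 0.38), or 0.0036 without CRL replicate 3 and 0.16 without CRL replicate 2, and that between IF1-TG and IF1-KO 0.13 (interval -0.15 to 0.42).

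Slc17a7 encodes VGLUT1, the transporter that fills vesicles with glutamate in most hippocampal excitatory neurons, which are the cells in which both drivers act. It was at 2.60, 2.63 and 2.36 on the IF1-KO arrays, 2.44, 2.51 and 2.31 on the CRL arrays, and 2.35, 2.51 and 2.82 on the IF1-TG arrays. IF1-TG replicate 3 stood highest, and the other IF1-TG arrays lay within the range of the controls. The IF1-TG minus CRL difference was 0.14 (standard error 0.15, interval -0.20 to 0.48). It fell to 0.0089 without IF1-TG replicate 3 and rose to 0.25 without IF1-TG replicate 1. IF1-KO and CRL differed by 0.11 (interval -0.23 to 0.45), or by 0.056 without CRL replicate 3 and 0.20 without IF1-KO replicate 3, and IF1-TG and IF1-KO by 0.030 (interval -0.31 to 0.37).

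Synapsins coat vesicles and tether them into the reserve cluster, and phosphorylation releases them. Syn1 lies on chromosome X, and its 60-base probe at chrX:20437641-20437700 of mm9, on the minus strand, begins with the 30 bases below, shown because this probe gave the lowest single reading relative to controls among the members. No base is capitalized.
Syn1: agcggctctgaacccccaagagaagagtcg
Syn1 signals were 5.57, 5.93 and 5.86 on the IF1-KO arrays, 5.98, 5.87 and 5.61 on the CRL arrays, and 5.91, 4.96 and 5.55 on the IF1-TG arrays. A single array, IF1-TG replicate 2, stood 0.86 below the CRL mean, and its spot carried no outlier mark. IF1-TG replicate 1 lay within the controls.

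Over all arrays Syn1 averaged 5.47 ± 0.48 (SD, n = 3) in IF1-TG mice and 5.82 ± 0.19 (SD, n = 3) in CRL mice. The log2 difference of -0.34 (standard error 0.24, interval -0.88 to 0.20, limma unadjusted P = 0.181) was the only negative one of the 9 genes in this comparison. It ranged from -0.56 without IF1-TG replicate 1 to -0.088 without IF1-TG replicate 2. After normexp background correction and quantile normalization it was -0.49 (limma unadjusted P = 0.0413, adjusted P = 0.741), and without IF1-TG replicate 1 the unadjusted P value was 0.0339 (adjusted P = 0.680), in both cases short of the fold threshold of 1.5. The IF1-TG minus IF1-KO difference was -0.31 (interval -0.85 to 0.23). It was -0.55 after normexp correction and quantile normalization (limma unadjusted P = 0.0246, adjusted P = 0.758) and -0.53 without IF1-TG replicate 1 (limma unadjusted P = 0.0426, adjusted P = 0.908), and -0.055 without IF1-TG replicate 2. Both larger values were short of the fold threshold. The IF1-KO minus CRL difference was -0.032 (interval -0.57 to 0.51).

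Syn2 was read by 2 probes to different transcripts, which makes it the member in which isoforms can be set side by side. The brighter probe, at chr6:115226390-115226449, is annotated to transcript NM_013681 and the dimmer one, at chr6:115231474-115231533, to NM_001111015 (both mm9, plus strand). Their first 30 bases are given to show that the probes are distinct, and over their whole length the longest stretch they share is 5 bases.
Syn2, NM_013681: acacttttgtcacagtgtagggtttctgtt
Syn2, NM_001111015: tagtctttaagagctttattctgaagtcat
On the brighter probe the signal was 5.55, 5.65 and 5.69 on the IF1-KO arrays, 5.52, 5.43 and 5.52 on the CRL arrays and 5.43, 5.66 and 5.69 on the IF1-TG arrays. Every IF1-KO array read above every CRL array here, while the IF1-TG arrays overlapped both.

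That separation was narrow. The IF1-KO arrays exceeded the CRL arrays by 0.14 on average (standard error 0.11, interval -0.11 to 0.40, a fold of 1.10, limma unadjusted P = 0.238), and by 0.18 in a fit that lacked the array labelled IF1-KO replicate 1. Of all genes tested, 3.96% had their IF1-KO arrays above all CRL arrays on the brightest probe, and 1 of the 9 members did. On the dimmer probe the IF1-KO values were 2.18, 2.22 and 1.99, the CRL values 2.03, 2.04 and 1.98 and the IF1-TG values 1.68, 1.96 and 2.18. The groups overlapped on this probe. Its IF1-KO minus CRL difference was 0.11 (interval -0.22 to 0.44), and its IF1-TG minus CRL difference was -0.075 (interval -0.41 to 0.26) where the brighter probe gave 0.10 (interval -0.16 to 0.36). That 0.10 was 0.052 on leaving out IF1-TG replicate 3 and 0.18 on leaving out IF1-TG replicate 1. Between IF1-TG and IF1-KO the brighter and dimmer probes gave -0.044 and -0.19, with intervals of -0.30 to 0.21 and -0.52 to 0.14.

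Of the fusion proteins, Snap25 contributes 2 of the 4 helices of the SNARE bundle from the plasma membrane. Its probe (chr2:136607709-136607768 of mm9, plus strand) opens with a run of CA dinucleotides of 20 bases, capitalized below, so that a part of the probe is not particular to this gene by its letters.
Snap25: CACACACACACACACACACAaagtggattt
Signals were 5.65, 5.32 and 5.41 on the IF1-KO arrays, 5.74, 5.66 and 5.26 on the CRL arrays and 5.60, 5.42 and 5.78 on the IF1-TG arrays. CRL replicate 3 was lowest and IF1-TG replicate 3 highest, and the groups overlapped throughout. Snap25 differed by 0.040 between IF1-TG and CRL (interval -0.34 to 0.42), by -0.097 between IF1-KO and CRL (interval -0.48 to 0.29) and by 0.14 between IF1-TG and IF1-KO (interval -0.25 to 0.52). The second of these was -0.24 without CRL replicate 3 and -0.0029 without CRL replicate 1, and the third 0.048 without IF1-TG replicate 3.

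Syntaxin 1A (Stx1a), the other SNARE of the plasma membrane, was the most variable member. It read 1.59, 2.71 and 1.84 on the IF1-KO arrays, 1.62, 2.16 and 1.74 on the CRL arrays, and 1.98, 1.83 and 2.01 on the IF1-TG arrays. IF1-KO mice held both extremes, with replicate 2 standing 0.88 above the CRL mean. The IF1-KO minus CRL difference of 0.21 (standard error 0.28, interval -0.43 to 0.84) was -0.12 when IF1-KO replicate 2 was dropped, so its direction rested on that array, and it was 0.44 in a fit that lacked the array labelled IF1-KO replicate 1. Between IF1-TG and CRL the difference was 0.10 (interval -0.53 to 0.74), and both intervals leave room for an increase of more than 1.5-fold. The IF1-TG minus IF1-KO difference was -0.11 (interval -0.74 to 0.53).

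Vamp2 (synaptobrevin 2) is the SNARE of the vesicle itself. Its signal was 5.31, 5.48 and 5.18 on the IF1-KO arrays, 5.30, 5.46 and 5.19 on the CRL arrays, and 5.60 and 5.46 on IF1-TG replicates 1 and 2. The only Vamp2 spot of IF1-TG replicate 3 was marked as an outlier by the scanner software and was left out, so that the IF1-TG mean of 5.53 ± 0.10 (SD, n = 2) rests on 2 arrays, both of them on slide 1, where no other genotype was hybridized. These 2 arrays lay above the 3 CRL arrays, by less than 0.01 at the closest pair (5.464 against 5.456). IF1-TG exceeded CRL by 0.22 (standard error 0.15, interval -0.13 to 0.56, a fold of 1.16, limma unadjusted P = 0.181). With the outlier spot kept, at 5.14 the lowest reading of the gene, the difference was 0.087 (unadjusted P = 0.582) and the groups overlapped. Vamp2 was alone among the members in showing no overlap in this comparison, as 6.66% of all genes tested did with IF1-TG higher. That share is mostly of genes with 3 IF1-TG arrays, for which full separation is harder to reach than with 2. IF1-KO and CRL means were 5.32 ± 0.15 and 5.32 ± 0.13 (SD, n = 3 each), a difference of 0.0079 with an interval of -0.30 to 0.32. IF1-TG exceeded IF1-KO by 0.21 (interval -0.13 to 0.55, limma unadjusted P = 0.195), which was 0.080 with the outlier spot kept.

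Rab3a is the GTPase that brings vesicles to the active zone. It stood at 6.47, 6.14 and 6.12 on the IF1-KO arrays, 6.23, 6.14 and 6.16 on the CRL arrays and 6.20, 6.48 and 6.57 on the IF1-TG arrays. IF1-TG replicates 2 and 3 read above all CRL arrays, and so did the array labelled IF1-KO replicate 1, whose Atpif1 signal was not reduced. Rab3a had the largest positive difference between IF1-TG and CRL, 0.24 (standard error 0.14, interval -0.085 to 0.57, a fold of 1.18, limma unadjusted P = 0.127, adjusted P = 0.673). Without IF1-TG replicate 1 it was 0.35 with an unadjusted P value of 0.0429 (adjusted P = 0.709), and after normexp correction and quantile normalization it was -0.085. The IF1-KO minus CRL difference was 0.066 (interval -0.26 to 0.39) and turned to -0.046 without the array labelled IF1-KO replicate 1. That between IF1-TG and IF1-KO was 0.18 (interval -0.15 to 0.50).

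**Figure D2:**
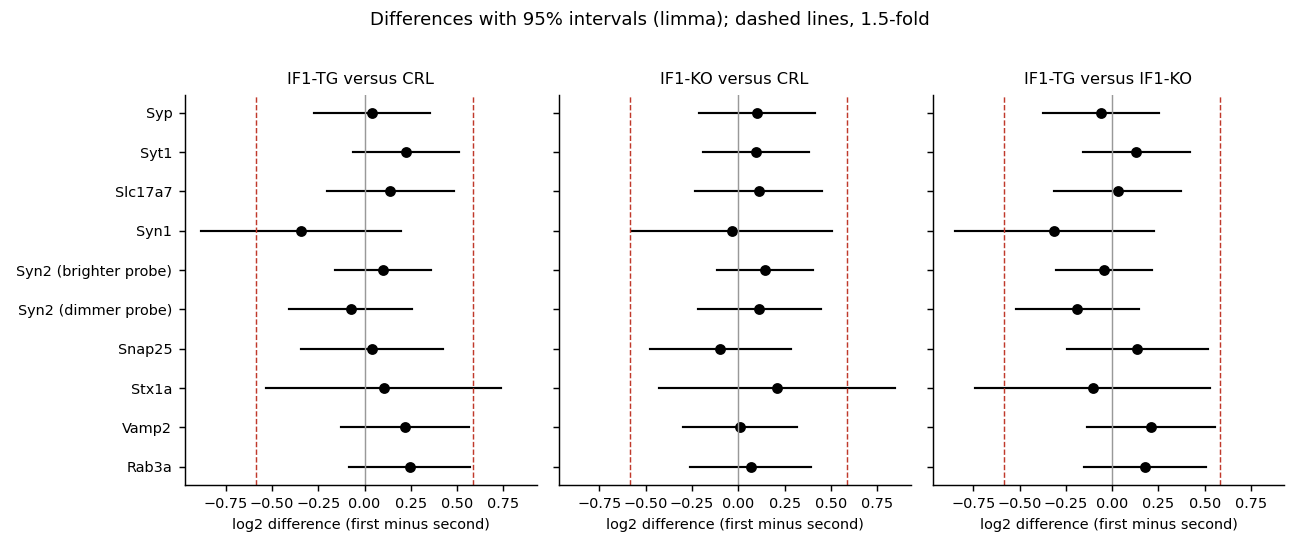
Log2 differences between genotypes (points) with 95% intervals from limma (lines) for the 10 member probes in the 3 comparisons. Dashed lines mark a 1.5-fold change in either direction. All intervals include 0, and those of Syn1 and Stx1a are the ones that cross a dashed line.

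The precision differed between members. Standard errors ran from 0.11 for the brighter Syn2 probe to 0.28 for Stx1a. Between IF1-TG and CRL mice the 95% intervals of 8 of the 10 probes lay wholly within a 1.5-fold change, with Syn1 and Stx1a as the exceptions. The same held for 8 of 10 when IF1-TG was set against IF1-KO, again all but Syn1 and Stx1a, and for 9 of 10 when IF1-KO was set against CRL, all but Stx1a. These bounds depended on the fit. With slide as a fixed block the intervals of 2, 8 and 4 of the 10 probes lay within a 1.5-fold change, in the order IF1-TG with CRL, IF1-KO with CRL and IF1-TG with IF1-KO. On the IF1-TG side that fit rests on IF1-TG replicate 3, the only array of its genotype to share a slide with others. Leaving out 1 array gave 4 to 8 in the first, 7 to 9 in the second and 5 to 8 in the third, and the IF1-TG minus CRL interval of Rab3a, with an upper limit of 0.57 against a threshold of 0.585, passed the threshold under either block and in 7 of the 9 fits that lacked 1 array.

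Of the 8 members measured on every array, 6 varied less over the 9 arrays than the median gene, whose range was 0.773. The member probes were bright, and this comparison was not matched for signal. The mean log2 level per array was 4.81 to 5.09 for the members and -1.23 to -1.13 for all genes tested. Their ranges ran from 0.264 for Syn2 to 0.546 for Syt1, whereas Syn1 spanned 1.02 and Stx1a 1.13. The within-genotype SD was likewise below the median of all genes, 0.242, for 6 of these 8 members. Vamp2 spanned 0.420 over 8 arrays. No array was high or low for all members. IF1-TG replicate 3 gave the highest value for 5 of the 8 members measured on every array (Syp, Syt1, Snap25, Slc17a7 and Rab3a), and CRL replicate 3 gave the lowest value for 3 of them (Syt1, Snap25 and Slc17a7). CRL replicate 3 was also the array with the raised striatum markers. The 75th percentile that was subtracted was highest on CRL replicate 3 (11.39 on the log2 scale) and lowest on IF1-TG replicate 3 (10.60). The part of array brightness in these extremes was not tested.

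**Figure D3:**
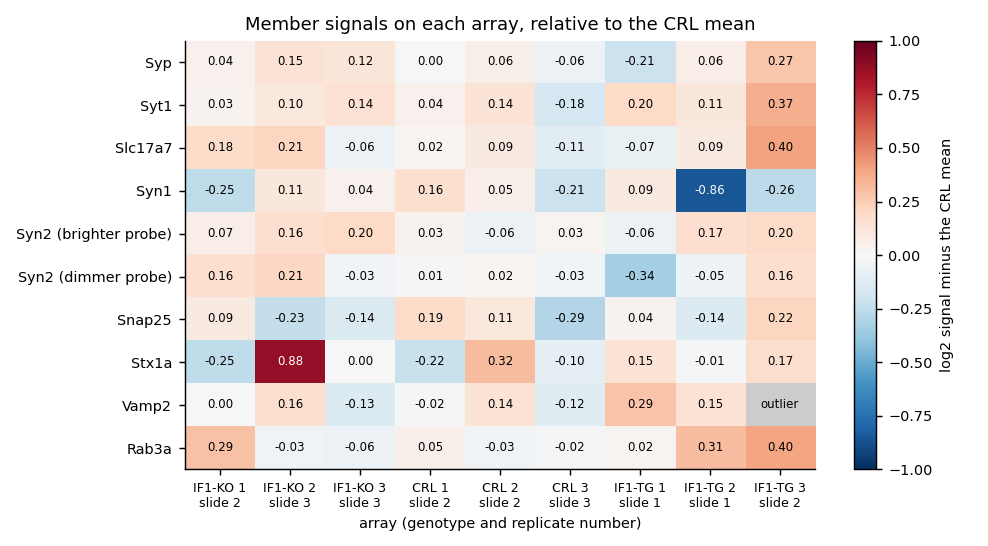
Log2 signal of each member probe on each array minus the mean of the CRL arrays. Columns are arrays with their slide, and the grey cell is the Vamp2 spot marked as an outlier. The strongest cells are single arrays, Stx1a on IF1-KO replicate 2 at 0.88 and Syn1 on IF1-TG replicate 2 at -0.86, and the IF1-TG replicate 3 column is positive except for Syn1.

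Taken by sign alone, 8 of the 9 genes were higher in IF1-TG than in CRL mice, with a median log2 difference of 0.10, beside a median of -0.00064 over all genes tested, of which 49.9% were higher. Under quantile normalization, with or without normexp correction, 6 of 9 were higher, as they were without IF1-TG replicate 3, where the median was 0.052. Leaving out CRL replicate 2 raised the median to 0.19, and lacking either IF1-TG replicate 1 or 2 it was 0.17 or 0.16. Between IF1-KO and CRL mice, 7 of 9 were higher with a median of 0.093 (all genes -0.0083, 48.1% higher). This was 5 of 9 with a median of 0.060 without IF1-KO replicate 2, and 6 of 9 with a median of 0.056 without CRL replicate 3. The median between IF1-TG and IF1-KO mice was 0.030, with 5 of 9 higher (all genes 0.0066, 51.3% higher). The CRL mean was the lowest of the 3 genotypes for 7 of 9 members (all but Syn1 and Snap25), and both comparisons with CRL share those 3 arrays.

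Slides did not hold the genotypes evenly. IF1-TG replicates 1 and 2 were on slide 1, slide 2 held CRL replicates 1 and 2, IF1-TG replicate 3 and the array labelled IF1-KO replicate 1, and slide 3 IF1-KO replicates 2 and 3 and CRL replicate 3. On slide 2, IF1-TG replicate 3 exceeded the mean of both CRL arrays by 0.25 for Syp, 0.28 for Syt1, 0.35 for Slc17a7 and 0.39 for Rab3a, and stood 0.37 below it for Syn1. With slide as a fixed block the median IF1-TG minus CRL difference of the members was 0.27, and again none passed both thresholds or an unadjusted P value of 0.05. Slide 1 held no other genotype, so on the IF1-TG side the differences of that fit rest on replicate 3 alone. For Vamp2, whose spot on that array was left out, no IF1-TG array shares a slide with another genotype. For IF1-KO and CRL, slides 2 and 3 disagreed in sign for Syn1 (-0.36 and 0.29), Stx1a (-0.30 and 0.54), Syt1 (-0.055 and 0.30), Vamp2 (-0.065 and 0.13), Snap25 (-0.058 and 0.10) and Rab3a (0.28 and -0.030), and shared it for Syp (0.013 and 0.19), Slc17a7 (0.13 and 0.18) and both Syn2 probes.

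In a fit that lacked the array labelled IF1-KO replicate 1, still no member was called in either comparison that uses IF1-KO mice. The member differences between IF1-KO and CRL then ran from -0.19 for Snap25 to 0.44 for Stx1a, with a median of 0.077, and the smallest unadjusted P value was 0.149.

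To place the 9 genes, 95 further genes of the presynaptic terminal were taken by role, and all were tested. Between IF1-TG and CRL mice 5 of them (5.26%) passed both thresholds on at least 1 probe, 3 higher (Madd, Rims1 and Ston2) and 2 lower (Snph and Cadps2), beside the 5.59% of all genes. With normexp correction and quantile normalization 4 (4.21%) passed, all of them lower, beside 2.54% of all genes, of which 330 were higher and 228 lower. None of the 95 passed between IF1-KO and CRL mice, beside 1.34% of all genes (2 had an unadjusted P value below 0.05 in limma), but 4 (4.21%, beside 4.59% of all genes) did once CRL replicate 3 was left out and 3 (3.16%, beside 2.06%) on leaving out the array labelled IF1-KO replicate 1. Between IF1-TG and IF1-KO mice 3 (3.16%, against 4.7% of all genes) passed: Syn3 and Unc13c higher and Snph lower. When only probes well above background on all 9 arrays were tested, 2 (2.11%, beside 3.69% of all genes) passed there, without Syn3, and 4 (4.21%, beside 4.55%) between IF1-TG and CRL, without Ston2. Between IF1-TG and IF1-KO, 5 (5.26%) passed with normexp correction and quantile normalization, 1 higher and 4 lower. Of all genes 2.52% did so, 263 higher and 289 lower. None of the 95 genes passed at a Benjamini-Hochberg adjusted P value of 0.05 in limma, as 0.00457%, 0% and 0.0137% of all genes did in the 3 comparisons. The shares moved with single arrays and with the slide block, in which the IF1-TG side rests on IF1-TG replicate 3 alone. Between IF1-TG and CRL 15 genes passed with slide as a fixed block (15.8%, beside 9.93% of all genes), and leaving out IF1-TG replicate 1, 2 or 3 gave 9 (9.47%, beside 5.19%), 9 (9.47%, beside 8.7%) and 3 (3.16%, beside 7.02%). Between IF1-TG and IF1-KO 7 passed with slide as a fixed block (7.37%, beside 6.41%), 5 without IF1-TG replicate 1 (5.26%, beside 3.97%), 6 without IF1-TG replicate 2 (6.32%, beside 7.77%) and 8 on leaving out the array labelled IF1-KO replicate 1 (8.42%, beside 5.73%).

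**Figure D4:**
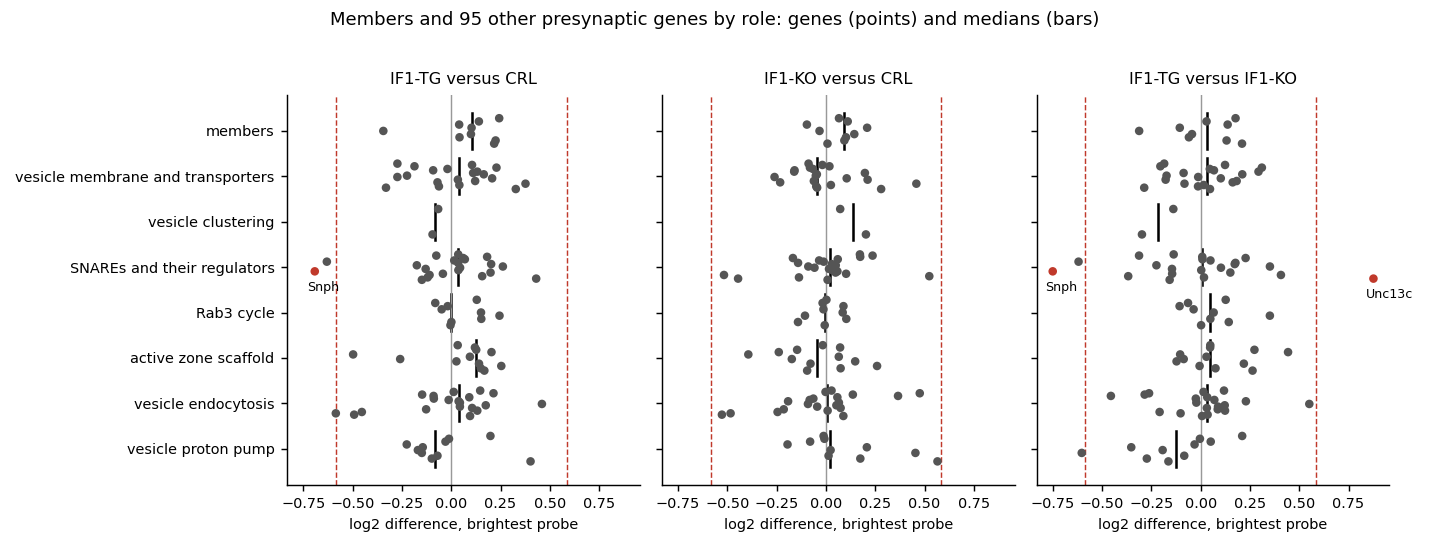
Log2 difference on the brightest probe of each gene (points) for the 9 members and the 95 further presynaptic genes by role, in the 3 comparisons. Black bars are medians, dashed lines a 1.5-fold change, and red named points passed both thresholds on this probe. The points centre near 0 in most roles, and the named points are Snph at -0.69 and -0.75 and Unc13c at 0.88.

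By role, the 20 genes of vesicle membrane and transporters had a median difference of 0.038 between IF1-TG and CRL mice, with 11 of 20 higher and none called. The 10 proton pump subunits, which energize filling, had a median of -0.084, with 8 of 10 lower and none called. The 12 active zone scaffold genes had a median of 0.12 with 10 of 12 higher, 1 of them called. For the 22 SNAREs and regulators the median was 0.035 (13 of 22 higher, 2 called). It was 0.00091 for the 9 genes of the Rab3 cycle (5 of 9 higher, 1 called) and 0.041 for the 20 endocytosis genes (12 of 20 higher, 1 called). Of all genes tested, 49.9% were higher and 5.59% were called in this comparison. Snap91, an endocytic clathrin adaptor, lay just short of the fold threshold at -0.58 (limma unadjusted P = 0.0160), and passed under normexp correction with quantile normalization and on leaving out CRL replicate 2 or 3 or IF1-TG replicate 1 or 3.

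**Figure D5:**
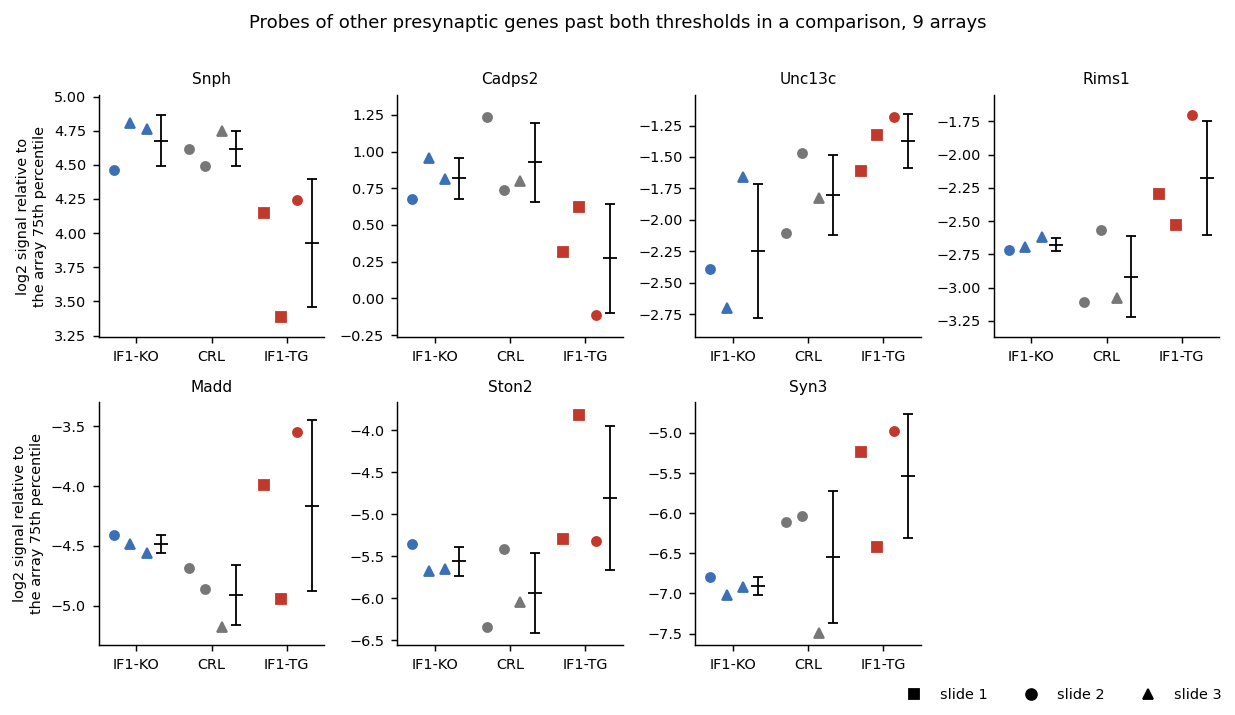
Log2 signal relative to the array 75th percentile (each panel with its own range) for the probes of 7 presynaptic genes that passed both thresholds in at least 1 comparison. Points are arrays, with a shape for each slide, and the bars to their right give the mean and SD of 3 arrays. The 3 IF1-TG points of Snph lie below all others, and in several panels 1 or 2 IF1-TG arrays lie apart from the third.

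Syntaphilin (Snph), which anchors mitochondria in axons and binds syntaxin, read 4.46, 4.80 and 4.76 on the IF1-KO arrays, 4.62, 4.49 and 4.75 on the CRL arrays and 4.15, 3.39 and 4.25 on the IF1-TG arrays. All IF1-TG arrays were below the rest, replicate 2 most of all. The IF1-TG minus CRL difference was -0.69 (standard error 0.23, limma unadjusted P = 0.0146) and the IF1-TG minus IF1-KO difference -0.75 (unadjusted P = 0.00980). Both calls were lost without IF1-TG replicate 2 (-0.42 and -0.48). They were also lost with slide as a fixed block (-0.29 and -0.26), where the IF1-TG side rests on replicate 3. Unc13c, a Munc13 priming factor, was at -2.39, -2.70 and -1.66 in IF1-KO, -2.11, -1.47 and -1.83 in CRL and -1.61, -1.33 and -1.18 in IF1-TG mice, and was called between IF1-TG and IF1-KO (0.88, unadjusted P = 0.0124) but not with slide as a fixed block (1.12, unadjusted P = 0.0564).

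For the other 5 called genes the probe that passed was not the brightest of its gene, and the brightest probe did not pass. None of these calls held under all 13 alternatives run on single probes (slide or replicate as a block, quantile normalization with or without normexp correction, and leaving out each of the 9 arrays). Cadps2, which primes dense-core vesicles, differed by -0.65 between IF1-TG and CRL on the called probe and by -0.076 on the brightest of its 3 probes. Rims1, an active zone scaffold, gave 0.74 and 0.25, and Madd, an exchange factor for Rab3, 0.75 and 0.13. The Cadps2 call was lost without CRL replicate 1 or IF1-TG replicate 3, that of Rims1 without IF1-TG replicate 3 and under normexp correction, and that of Madd under 9 of the 13 alternatives. In 4 of these 9, the replicate block and leaving out each IF1-KO array, the Madd difference stayed at 0.75 and the limma unadjusted P value was 0.0553 to 0.0598. The fold threshold was also still passed without CRL replicate 2 (0.77, limma unadjusted P = 0.0752), CRL replicate 3 (0.61) or IF1-TG replicate 1 (0.66). For Ston2, an endocytic adaptor for synaptotagmin, the probes opposed each other, at 1.13 and -0.49. The called probe was not well above background on CRL replicate 1, whose reading of -6.34 entered the fit, and without that array the difference was 0.92 (limma unadjusted P = 0.0788). The call was also lost with slide as a fixed block (0.54, limma unadjusted P = 0.398) and under normexp correction (0.49). Without CRL replicate 3 it was lost on the P value alone, with a difference of 1.07 (limma unadjusted P = 0.0592). Syn3, the third synapsin, differed by 1.37 on a dim probe between IF1-TG and IF1-KO and by -0.30 on its brightest. The dim probe was well above background on 2 of the 3 IF1-KO arrays, 2 of the 3 CRL arrays and all 3 IF1-TG arrays, so it entered the test only through the genotype in which it read highest. The IF1-KO mean includes the reading of -7.01 on IF1-KO replicate 2, which was not well above background, so the 1.37 rests partly on a reading at background. Its call was lost with slide as a fixed block (limma unadjusted P = 0.0519, with a difference no smaller) and under normexp correction (0.48). Without IF1-TG replicate 1 or 3 it was lost on the P value alone. The differences were then 1.21 (limma unadjusted P = 0.0516) and 1.08 (limma unadjusted P = 0.0619).

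Syt1, the member with the smallest P value, had its pattern over the 9 arrays most closely followed, among 21657 genes, by Pdzd9 (Pearson r = 0.977, Spearman rho = 0.983), 4930528J11Rik (r = 0.967, rho = 0.933) and Egln2 (r = 0.967, rho = 0.950). Pdzd9 read -7.19 to -5.76 and 4930528J11Rik -6.67 to -4.62, ranges that reach levels at which single readings of other probes were not well above background. All of them, like Syt1, were lowest on CRL replicate 3 and highest on IF1-TG replicate 3. These are the highest of many correlations over the same 9 arrays and are given as a description.

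RefSeq promoters on GRCm38.p6, from 250 bases before to 50 after the start, were at hand for 7 of the 9 members, 10 promoters in all, and not for Snap25 and Vamp2. Their GC content ran from 44% to 68.3%, above the median of all 32851 promoters (52.7%) in 8 of 10. The letters GGGCGG, on either strand, occurred in 6 of the 10 (35.7% of all promoters) and TATAAA in 0 of 10 (13.6% of all). TTCAGCACC, the first part of the element bound by the neuronal gene repressor REST, occurred in the Syn1 promoter alone (0.371% of all promoters), and so did the cyclic AMP response element TGACGTCA (1.79%). An exact match to the second part of the REST element was in 0 of 10 (0.521% of all). Inexact matches were not counted. In the Syn1 stretch below, the bases shortly after the capitalized letters resemble this second part without matching it exactly. The count of 0 thus does not show that the Syn1 promoter holds only the first part. All letters were searched on both strands. The REST letters are capitalized in the stretch below, at chrX:20921126-20921155 on the minus strand, and their first base lies at position -232 from the start. It is shown because Syn1 is the textbook neuron-restricted gene of the group.
Syn1 promoter: tcggaTTCAGCACCgcggtcagagccttcg
A match of letters is a description and not evidence of binding.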

How the data were processed

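The authors deposited the spot intensities of 9 one-colour Agilent arrays from Feature Extraction 10.7.3.1, with the background subtracted within each array and no normalization between arrays. For an alternative, the mean intensity of each spot and the median intensity around it were used as deposited. Genotype, replicate number and age are those of the sample labels. The submitters' processing notes name limma, without its settings.

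From the log2 of the processed intensity the 75th percentile of the array was subtracted. Control spots and outlier spots were dropped, and repeated spots were averaged. Of 39429 probes, 27991 were kept because at least 1 genotype had them well above background on each of its 3 arrays. All 9 arrays entered 1 fit of genotype in limma 3.58.1 (R 4.3.3) with eBayes. A gene passed when a probe reached a fold of 1.5 and an unadjusted P value below 0.05, as in the study's methods. Benjamini-Hochberg values cover all kept probes. The fit was tested on simulated data in which chosen probes had been shifted. Precision is limited by the 3 arrays per genotype.

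The members and the lists of presynaptic and marker genes were chosen with earlier results of these data known. A gene of the presynaptic list is not reported here, and the list's counts leave it out. Named are all members, Atpif1, listed presynaptic genes that passed, and the 3 genes most correlated with the member of smallest P value; Snap91 and genes named only in the closing section were chosen after their values were seen. A gene is given by its brightest probe unless stated. The alternatives tried were normexp correction (offset 50) with quantile normalization, quantile normalization alone, no filter, a stricter filter (above background on every array), slides as fixed or random blocks, a replicate block, fits of the 2 genotypes compared, the mean of a gene's probes, and each array left out in turn. Keeping outlier spots was added after seeing the data. Probe sequences and mm9 positions are those of the deposited files.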

Additional observations from a re-analysis of the deposited data

How the results depend on the processing

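No member passed both thresholds under any of the 10 alternatives or with any array left out, in any comparison. With slide as a fixed block the median member difference moved from 0.10 to 0.27 between IF1-TG and CRL and from 0.030 to 0.17 between IF1-TG and IF1-KO, and the presynaptic genes called rose from 5 to 15 and from 3 to 7. With the mean of a gene's probes 2 were called between IF1-TG and CRL (2.11%, beside 4.03% of all genes). Under normexp correction 5 were called between IF1-TG and IF1-KO (5.26%, beside 2.52%). Between IF1-KO and CRL, against 0, 1 was called after normexp correction (Atp6v1h, 1.05% beside 0.726% of all genes). When only the 2 genotypes entered, 1 was called (Sv2c, 1.05% beside 1.57%). Leaving out 1 array gave 3 to 9 such calls between IF1-TG and CRL (9 without IF1-TG replicate 1 or 2, 3 without replicate 3), 0 to 4 between IF1-KO and CRL (4 without CRL replicate 3, 3 on leaving out the array labelled IF1-KO replicate 1, and 1 without replicate 2 or 3 of IF1-KO or replicate 3 of IF1-TG) and 2 to 8 between IF1-TG and IF1-KO (8 on leaving out the array labelled IF1-KO replicate 1, and 5 and 6 on leaving out IF1-TG replicate 1 or 2), and a median member difference of 0.052 to 0.19 in the first, 0.056 to 0.11 in the second, and in the last from -0.091 (without IF1-TG replicate 3) to 0.14 (without IF1-TG replicate 1). In the fits with 1 such call between IF1-KO and CRL, 1.2%, 1.48% and 1.39% of all genes passed. With slide as a fixed block the IF1-TG side rests on IF1-TG replicate 3, since the slide of replicates 1 and 2 held no other genotype. The cause of the moves was not tested.

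Some member differences, none of them called, turned in sign. Under normexp correction with quantile normalization these were, between IF1-TG and CRL, Snap25 (-0.063) and Rab3a (-0.085); between IF1-KO and CRL, Syn1 (0.063), Syt1 (-0.029), Snap25 (0.011) and Rab3a (-0.025); and between IF1-TG and IF1-KO, Syn2 (0.040), Snap25 (-0.075), Stx1a (8.05e-05), Vamp2 (-0.036) and Rab3a (-0.059). Under quantile normalization alone they were Syp (-0.041) and Snap25 (-0.037) between IF1-TG and CRL and Syn1 (0.018) between IF1-KO and CRL. With slide as a fixed block they were Snap25 between IF1-KO and CRL (0.023) and Syp (0.17), Syn2 (0.11) and Stx1a (0.14) between IF1-TG and IF1-KO. Leaving out 1 array gave ranges across 0 for Syp (-0.074 to 0.17), Snap25 (-0.11 to 0.13) and Stx1a (-0.0064 to 0.26) between IF1-TG and CRL; for Syn1 (-0.14 to 0.077), Stx1a (-0.12 to 0.44), Vamp2 (-0.069 to 0.078) and Rab3a (-0.046 to 0.13) between IF1-KO and CRL; and for Syp (-0.18 to 0.068), Syn2 (-0.091 to 0.037), Stx1a (-0.34 to 0.23) and Slc17a7 (-0.10 to 0.14) between IF1-TG and IF1-KO. Ranges on one side of 0 were still wide for Rab3a (0.17 to 0.35) and Vamp2 (0.15 to 0.29) between IF1-TG and CRL, and for Syt1 (0.061 to 0.19), Rab3a (0.10 to 0.29) and Vamp2 (0.14 to 0.29) between IF1-TG and IF1-KO.

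Replicate numbers did not pair the arrays: same-numbered arrays of different genotypes correlated from -0.17 to 0.12 in their deviations from the genotype means. With a replicate block the genes called among all tested went from 1224 to 1157, from 294 to 328 and from 1030 to 1036, the presynaptic genes called were 4, 0 and 3, and the member medians stayed at 0.10, 0.093 and 0.030.

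Over all genes, the counts called were 1224 between IF1-TG and CRL, 294 between IF1-KO and CRL and 1030 between IF1-TG and IF1-KO. They went to 556, 159 and 552 under normexp correction with quantile normalization and to 4526, 723 and 3114 with no filter. In the first comparison they were 1906 without IF1-TG replicate 2 and 2175 with slide as a fixed block. In the second they were 177 under the stricter filter, 178 without CRL replicate 1, 1006 without CRL replicate 3 and 452 on leaving out the array labelled IF1-KO replicate 1, and the split of 177 higher and 118 lower calls became 132 and 27 under normexp correction. In the third they were 604 without IF1-KO replicate 2, and 1703 and 1583 on dropping replicate 2 or 3 of IF1-TG.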

Other observations

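Other neuronal lists give a background to the presynaptic values. Of the 7 pan-neuronal markers 4 were higher in IF1-TG than in CRL mice and none was called, and the median of their differences was 0.10 on the log2 scale. The 8 hippocampal excitatory neuron markers had a median of -0.19 between IF1-TG and CRL and of -0.18 between IF1-KO and CRL. In each, 5 of 8 were lower and none was called. All IF1-TG arrays lay below all CRL arrays for 3 of the 8 (Prox1, Dsp and C1ql2), beside 5.42% of all genes, and above them for 0. Between IF1-KO and CRL this held for 2 below (Prox1 and Wfs1, beside 4.09%) and 1 above (Fibcd1, beside 3.96%). Among 8 interneuron markers the mean level was lowest on IF1-TG replicate 1, at 1.12 against 1.62 to 2.04 on the other arrays. Of the 8 interneuron markers 1 passed between IF1-TG and CRL (Pvalb, -0.65 on a probe that was not its brightest and 0.090 on its brightest), beside 5.59% of all genes. Among the 7 striatum markers Adora2a passed and was lower than in CRL mice in IF1-TG (-0.96) and in IF1-KO mice (-1.16), where 5.59% and 1.34% of all genes passed, beside the high striatum level of CRL replicate 3. Of the 4 thalamus markers 2 passed both thresholds between IF1-TG and CRL mice (beside the same 5.59%), both higher in IF1-TG, Lef1 (0.68) and Tcf7l2 (1.11 on a probe that was not its brightest, 0.30 on its brightest). Between IF1-TG and IF1-KO mice the same Tcf7l2 probe passed, higher in IF1-TG (1.34, limma unadjusted P = 0.00781), as was the astrocyte marker Aqp4 on a probe that was not its brightest (0.79, limma unadjusted P = 0.00249, and 0.40 on its brightest, which did not pass), beside 4.7% of all genes. Aqp4 was the only one of 8 astrocyte, 8 oligodendrocyte and 8 microglia markers to pass in any comparison. The mean of the thalamus markers stood highest on IF1-TG replicate 2, at -0.44 against -1.48 to -0.96 on the other arrays, and its part in the low Syn1 and Snph readings of that array was not tested.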
